A study of Mus musculus with 6 samples.

Results

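Fos, Fosb, Jun, Junb, Jund, Egr1, Egr2, Ier2, Atf3 and Dusp1 are immediate early genes, and their mRNA was compared between adipose tissue of cavin-3 KO and WT mice. These 10 genes were taken by name, as common read-outs of ERK activity and of tissue handling, from 19937 genes measured. Each was read from 1 probe set with a single gene symbol, and none of the 10 had a second such probe set. RNA was hybridised to 6 Affymetrix Mouse Gene 1.0 ST arrays, 3 of cavin-3 KO mice and 3 of WT litter mates, all 10 weeks old and fasted for 6 hours. In the KO mice a lacZ/neo cassette takes the place of the whole cavin-3 gene in every cell, and the Boston colony came from 1 targeted ES cell clone of C57BL/6N origin. The labels say adipose tissue and do not name the depot. Values are log2 intensities, differences are KO minus WT on that scale, and a fold is KO over WT. Adjusted p-values are Benjamini-Hochberg values from limma over all 34760 probe sets.

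Immediate early genes are switched on within minutes of a stimulus by transcription factors that the cell already holds, so their induction needs no new protein. Growth factors act on many of them through the kinases Raf, MEK and ERK, which phosphorylate ternary complex factors such as Elk1 that sit beside serum response factor (Srf) on a DNA element called the CArG box. Stress and cAMP reach them through the kinases p38 and JNK and through CREB, and cutting or warming tissue is a known inducer. Cavin-3 coats caveolae and binds protein kinase C delta, and other work has linked it to ERK and Akt signalling, which is the reason to look at these genes here.

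To show which of these inputs the letters next to the genes could serve, the 250 bases before the start of transcription are printed for 5 genes. Dusp1 and Fosb are shown because their KO and WT values did not overlap, Egr2 for its CArG box, and Fos and Jun as the founding members of the AP-1 family. The sequences are from RefSeq on build GRCm38.p6, 5′ to 3′ on the strand of the gene, and capitals mark the motif named. Dusp1 is at chr17:26508473-26508722 on the minus strand with TGACG and TGACGTCA, the cAMP response element, in capitals. Fosb is at chr7:19310046-19310295 on the minus strand with TGACG and GCGNGGGCG, the Egr motif, in capitals. The Egr2 window is chr10:67537619-67537868 on the plus strand with the CArG box in capitals. Fos is at chr12:85473640-85473889 on the plus strand with TGACG in capitals. The Jun window is chr4:95052223-95052472 on the minus strand with TGACATCA, a variant that Jun and Atf2 proteins bind, in capitals.
Dusp1: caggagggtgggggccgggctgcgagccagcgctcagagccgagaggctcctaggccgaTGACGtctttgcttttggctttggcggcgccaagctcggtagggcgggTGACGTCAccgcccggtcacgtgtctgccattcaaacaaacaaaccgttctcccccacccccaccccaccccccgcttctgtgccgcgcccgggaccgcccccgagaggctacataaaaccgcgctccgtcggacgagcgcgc
Fosb: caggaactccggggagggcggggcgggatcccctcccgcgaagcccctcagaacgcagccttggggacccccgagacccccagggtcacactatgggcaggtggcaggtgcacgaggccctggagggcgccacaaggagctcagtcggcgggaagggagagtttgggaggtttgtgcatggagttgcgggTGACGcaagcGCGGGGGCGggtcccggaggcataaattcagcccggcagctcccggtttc
Egr2: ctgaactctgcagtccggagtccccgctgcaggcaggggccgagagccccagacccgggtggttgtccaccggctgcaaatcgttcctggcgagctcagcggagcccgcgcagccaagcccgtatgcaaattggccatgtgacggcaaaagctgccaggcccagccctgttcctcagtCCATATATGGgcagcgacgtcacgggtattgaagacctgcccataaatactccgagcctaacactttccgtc
Fos: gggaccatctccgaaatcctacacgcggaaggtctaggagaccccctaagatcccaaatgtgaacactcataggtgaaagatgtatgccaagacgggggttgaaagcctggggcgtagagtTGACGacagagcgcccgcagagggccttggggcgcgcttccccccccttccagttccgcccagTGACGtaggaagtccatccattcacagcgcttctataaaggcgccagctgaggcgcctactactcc
Jun: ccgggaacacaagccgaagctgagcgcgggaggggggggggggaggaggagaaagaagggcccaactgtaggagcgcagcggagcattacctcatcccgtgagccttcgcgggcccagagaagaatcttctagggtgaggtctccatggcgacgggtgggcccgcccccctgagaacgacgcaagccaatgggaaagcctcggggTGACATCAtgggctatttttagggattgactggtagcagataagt

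Such windows were found for 8 of the 10 genes, the others being Egr1 and Ier2, and were searched on both strands. TGACG was present for 6 of the 8 genes (Fos, Fosb, Junb, Egr2, Atf3 and Dusp1). Counted by window, it was in 8 of the 12 windows of the 8 genes, against 17.8% of 32851 windows of the same length in the whole table. Some of the Egr2 windows overlap and hold the same TGACG sites, so the windows counted are not all separate. TGACGTCA, which holds TGACG on both strands, was found for Dusp1 alone of the 8, 143 bases before the start, and in 1.55% of all windows. The CArG box was found for Egr2 alone of the 8, in 4 of its 5 annotated windows, and in 1.47% of all windows. Overlapping Egr2 windows among these hold the same CArG box. TGACATCA was found for Jun alone (2.93% of all windows), GCGNGGGCG for Fosb alone (4.70%), and TGANTCA, the AP-1 motif, for 0 of the 8 (6.75%). These matches describe letters and not bound sites. Bases further upstream were not searched, and Egr1 and Ier2 were not searched at all. A gene without a match here may therefore still hold a CArG box or another of these motifs elsewhere.

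The arrays differed in genes of other tissues. Cavin-3 itself had log2 signals of 6.79, 6.78 and 7.12 in KO and 10.05, 10.90 and 10.45 in WT, a difference of -3.57 (SE 0.23, adjusted p = 0.0409 from limma). It was the 1 gene called at an adjusted p of 0.05, and without each array in turn its adjusted p was 0.0459 to 0.509. Of 12 listed adipocyte markers 11 were measured, and their mean log2 signal was 11.91 to 12.00 in KO and 11.80 to 11.97 in WT. KO replicate 3 and WT replicate 2 stood apart from the other 4 arrays. Xist, an RNA of female cells, was at 11.34 and 11.14 in them and at 3.70 to 6.30 elsewhere. Uty, a gene of the Y chromosome, was at 3.21 and 3.36 in them and at 7.89 to 8.14 elsewhere. The methods state, however, that male animals only were analysed. In the same 2 arrays skeletal muscle genes had means of 9.08 and 8.90, against 5.97 to 6.79 in the others. Brown and beige adipocyte genes had means of 7.16 and 7.20 in them, against 5.55 to 5.80 in the others. Smooth muscle genes had means of 10.32 in KO replicate 2 and 10.48 in WT replicate 1, and the other 4 arrays lay between 7.78 and 9.20. Epididymis genes, all dim, had means of 5.53 and 5.80 in these 2 arrays, and the other 4 lay between 4.27 and 4.32. All 7 smooth muscle genes were lower in KO (median difference -0.36). Dropping single arrays moved this value both ways, to -0.91 when KO replicate 2 was dropped and to 0.25 when WT replicate 1 was. Of 8 urothelium genes 7 were lower in KO (median -0.63, and -0.10 without WT replicate 2), and their mean signal spanned 6.47 to 7.16 over KO arrays and 6.55 to 8.63 over WT arrays. None of these 15 genes had an unadjusted p under 0.05 from limma, and the part of either list in the values below was not tested. In bulk tissue, fewer cells of a type and less RNA per cell cannot be told apart.

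None of the 10 immediate early genes differed between cavin-3 KO and WT adipose tissue at an adjusted p of 0.05 from limma, where 0.00502% of all genes and 0.00575% of all probe sets were called. At an unadjusted p of 0.05 from limma the count was 1, Dusp1, where 0.838% of genes were called. By the t-test that the methods name, on log2 values, it was 0, where 347 of 19937 genes were called. Of the 10 genes 4 were higher and 6 lower in KO, with a median difference of -0.04, against a median of 0.00085 and 50.3% higher over all genes. Two-sided exact tests of 3 against 3 arrays cannot go below p = 0.10, so limma, which pools the variance over probe sets, was used. The values of KO and WT did not overlap for 2 of the 10, Dusp1 and Fosb, where 4.61% of genes did not. For Dusp1 the KO values lay above, as for 2.08% of genes, and for Fosb below, as for 2.53%. All 10 differences were within 1.5-fold, as were those of 99.6% of genes. The 95% intervals of the fold from limma differed in width between the genes, with 0.847 to 1.13 for Junb and 0.746 to 1.43 for Egr1.

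**Figure D1:**
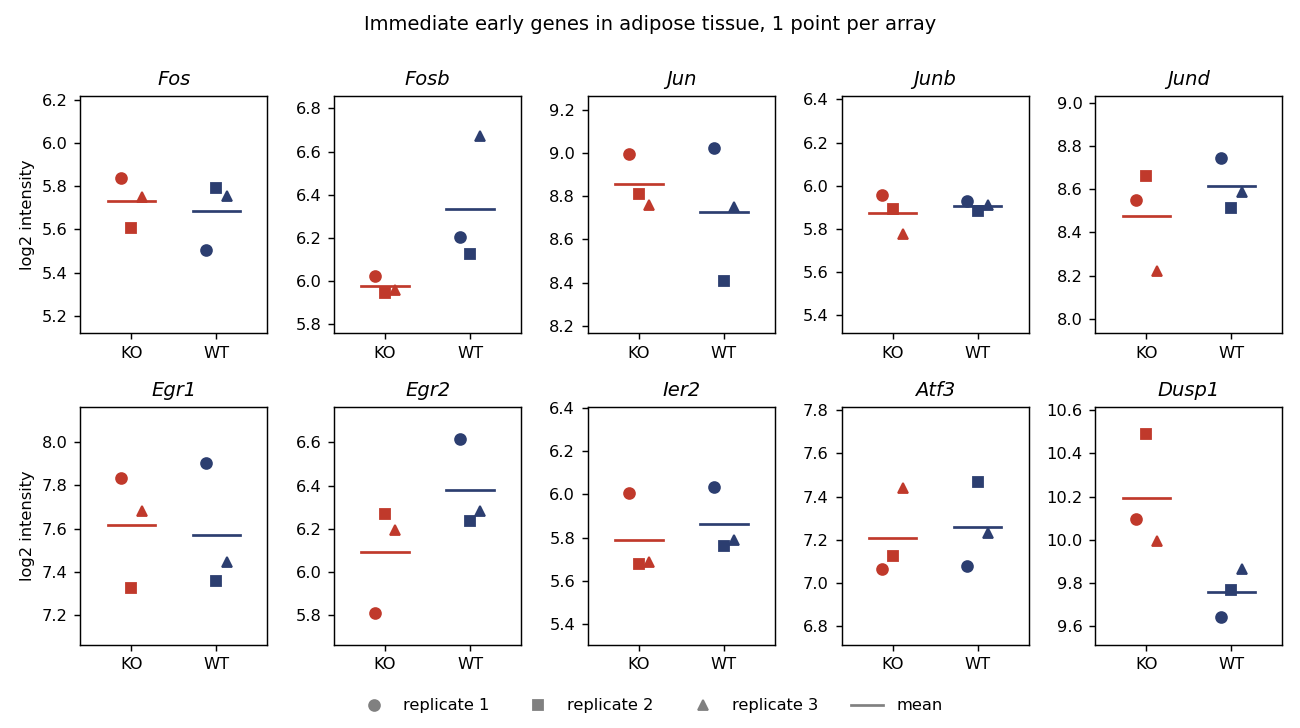
Log2 intensity of the 10 immediate early genes on each array, KO (red, left) and WT (blue, right), with 1 symbol per replicate and a line at the mean; every panel spans the same height on the log2 scale. KO and WT points are separate for Dusp1 (KO higher) and Fosb (KO lower) and overlap for the other 8 genes.

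Dusp1, a phosphatase that switches off ERK, p38 and JNK and is itself induced by them, was the gene with the largest positive difference of the 10. Its log2 signal was 10.10, 10.49 and 9.99 in KO replicates 1, 2 and 3, and 9.64, 9.77 and 9.87 in WT replicates 1, 2 and 3. All KO arrays lay above all WT arrays, by 0.13 at the closest, and KO replicate 2 was the highest. Dusp1 was 1.35-fold higher in KO, a difference of 0.44 (SE 0.15), and the interval around the fold ran between 1.05 and 1.74 at 95% (unadjusted p = 0.0258, adjusted p = 0.99999 from limma). Dusp1 remained on the higher side without each array in turn, at 0.29 without KO replicate 2 (unadjusted p = 0.0549 from limma) to 0.54 without KO replicate 3 (unadjusted p = 0.0163 from limma). Its unadjusted p from limma was 0.0765 without WT replicate 1 and 0.057 without WT replicate 2. Smooth muscle and epididymis genes, whose part was not tested, were high in KO replicate 2, where Dusp1 was highest, and in WT replicate 1, where Dusp1 was lowest. Without both of these arrays the difference was 0.23 (unadjusted p = 0.123 from limma), and without KO replicate 3 and WT replicate 2 it was 0.54 (unadjusted p = 0.0394 from limma).

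Fosb, a Fos family protein that pairs with Jun proteins, lay on the other side. Its signal was 6.02, 5.95 and 5.96 on the KO arrays, and 6.20, 6.12 and 6.67 on the WT arrays. The KO arrays lay close together, and WT replicate 3 stood above the other 5 arrays. The difference was -0.36 (SE 0.16), or 0.781-fold with a 95% interval of 0.603 to 1.01 (unadjusted p = 0.0591, adjusted p = 0.99999 from limma). Without WT replicate 3 it was -0.19, and without WT replicate 2 it was -0.46 (unadjusted p = 0.0307 from limma). The mean signal of Fosb was below the median of all genes, as was that of Fos, Junb, Egr2 and Ier2, so these 5 were read from dim probe sets.

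Fos, the archetype of the class and the dimerisation partner of Jun, was nearly equal. It had 5.84, 5.61 and 5.75 in KO and 5.50, 5.79 and 5.76 in WT. The lowest and the second highest array were both WT. The difference was 0.05 (SE 0.12), or 1.03-fold (95% interval 0.850 to 1.26). It turned to -0.04 without WT replicate 1 and to -0.0058 without KO replicate 1.

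The 3 Jun proteins form AP-1 with Fos proteins or with each other, Jun as the activator that JNK phosphorylates and Junb and Jund as relatives that often restrain growth. Jun had 9.0, 8.81 and 8.76 in KO and 9.02, 8.41 and 8.75 in WT, a difference of 0.13 (SE 0.17). WT replicate 2 alone was low, and the difference was -0.03 without it and 0.28 without WT replicate 1. Junb had 5.96, 5.89 and 5.78 in KO and 5.93, 5.88 and 5.91 in WT, a difference of -0.03 (SE 0.09). Junb varied least of the 10, with a pooled SD within genotypes of 0.07. Jund, which most cells express steadily, had 8.55, 8.66 and 8.22 in KO and 8.74, 8.51 and 8.59 in WT. KO replicate 3 was low for Jund, and the difference of -0.14 (SE 0.14) shrank to -0.01 without that array.

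The zinc finger factors Egr1 and Egr2, which bind GC-rich sites and are classical targets of ERK and Srf, did not run in parallel. Egr1 had 7.83, 7.32 and 7.68 in KO and 7.90, 7.36 and 7.44 in WT. The 2 highest arrays were 1 of each genotype, as were the 2 lowest, and the difference was 0.05 (SE 0.19), or 1.03-fold (95% interval 0.746 to 1.43). Egr1 had the widest spread of the 10 within genotypes (pooled SD 0.28), and its difference ran between -0.06 without KO replicate 1 and 0.21 without WT replicate 1. Without KO replicate 2 and WT replicate 1 together it was 0.36 (unadjusted p = 0.0395 from limma). Egr2 had 5.81, 6.27 and 6.20 in KO and 6.62, 6.24 and 6.28 in WT. KO replicate 1 was the lowest and WT replicate 1 the highest, while the other 4 arrays lay within 6.20 to 6.28. The difference of -0.29 (SE 0.16), or 0.820-fold (95% interval 0.623 to 1.08, unadjusted p = 0.130 from limma), was -0.15 without KO replicate 1 and -0.17 without WT replicate 1.

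Ier2, a small nuclear protein induced by serum and growth factors, had 6.01, 5.68 and 5.69 in KO and 6.03, 5.76 and 5.79 in WT. Replicate 1 of each genotype was high, and the difference was -0.07 (SE 0.13). Atf3, a stress-induced bZIP factor that often acts as a repressor, had 7.06, 7.12 and 7.44 in KO and 7.08, 7.47 and 7.23 in WT. Its highest values were those of KO replicate 3 and WT replicate 2, the arrays with high Xist and skeletal muscle signal, and the part of either in them was not tested. The difference in Atf3 was -0.05 (SE 0.15) with all arrays and -0.06 without those 2 arrays.

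**Figure D2:**
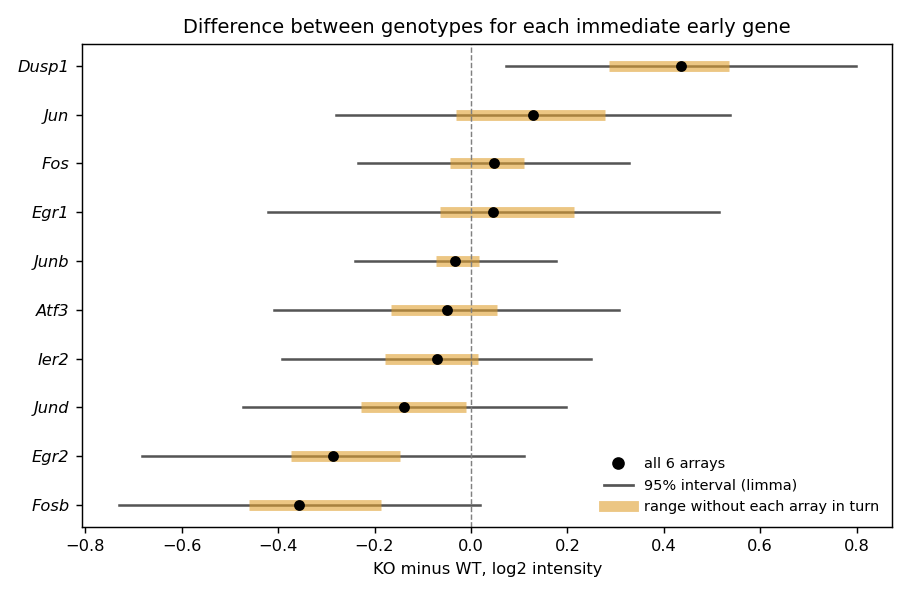
KO minus WT difference in log2 intensity of each immediate early gene (points), with the 95% interval from limma (grey lines) and the range of the difference when each array is left out in turn (orange bars). Only the interval of Dusp1, 0.07 to 0.80, lies clear of 0, and the orange bars of Fos, Jun, Junb, Egr1, Ier2 and Atf3 reach both sides of 0.

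Most of the 10 genes varied more between mice of 1 genotype than the median gene did. The pooled SD within genotypes was above the median of all genes (0.14) for 8 of the 10, with Fos and Junb below it, and its median over the 10 was 0.20. Against genes within 0.5 of the same mean log2 signal, 86.0% had a smaller SD than Egr1 and 83.1% a smaller one than Jun, but only 7.09% a smaller one than Junb. For the rest of the 10 this share ran from 40.7% (Fos) to 71.7% (Dusp1). For each of the 10 the range among KO or among WT arrays was wider than the difference between the means, also for Dusp1 with a KO range of 0.50 and for Fosb with a WT range of 0.55.

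Jun, Egr1 and Ier2 shared an order in part. For each of the 3, WT replicate 1 was the highest array and KO replicate 1 the next, 1 mouse of each genotype. The genes were not high together as a group, however. Jun, Jund, Egr1, Egr2 and Ier2 peaked in WT replicate 1, yet Fos and Dusp1 were lowest there, and KO replicate 1 was the highest for Fos and Junb but the lowest for Egr2 and Atf3. Over the 6 arrays, 22 of the 45 pairs of genes had a positive Pearson's r and 23 a negative one, with a median of -0.01. The closest pairs were Junb with Jund (r = 0.83) and Egr1 with Ier2 (r = 0.80), and the most opposed were Jun with Atf3 (r = -0.85) and Fos with Egr2 (r = -0.83). These values describe 6 arrays whose tissue contents differed, and 45 pairs were looked at.

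**Figure D3:**
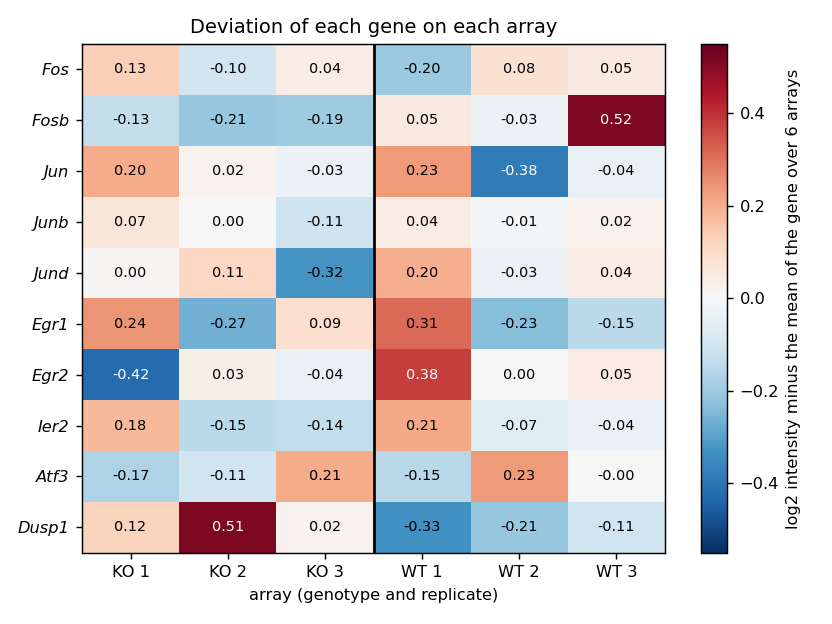
Log2 intensity of each immediate early gene on each array minus the mean of that gene over the 6 arrays (red above, blue below), with KO arrays left of the line and WT arrays right of it. Replicate 1 of both genotypes is above the mean for Jun, Egr1 and Ier2, and Dusp1 is above it on the 3 KO arrays.

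Simple and mammary epithelium genes were also high in WT replicate 1 and KO replicate 1, but in KO replicate 2 as well. All 6 of these listed genes were measured, and their mean log2 signal was 7.18, 7.64 and 5.89 in KO replicates 1, 2 and 3, against 7.87, 6.67 and 6.13 in WT replicates 1, 2 and 3. Their part in the values of Jun, Egr1 and Ier2 was not tested. Heat shock genes, a second group that responds to handling, did not separate the arrays in this way. The mean of 10 measured genes was 9.25 to 9.38 in KO and 9.22 to 9.33 in WT, and 6 of the 10 were higher and 4 lower in KO. Their smallest unadjusted p-values belonged to Hspb1, a small heat shock protein (difference 0.36, unadjusted p = 0.175 from limma), and Hspe1, a mitochondrial chaperonin (-0.12, unadjusted p = 0.383 from limma).

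The 6 genes above the median signal whose profile was most like the mean standardised profile of Jun, Jund, Egr1, Atf3 and Dusp1, the 5 brighter members, were Syf2, Bcl7a, Abhd3, Zfp612, Usp42 and Mbd1. Their Pearson's r with that profile over 6 arrays was 0.97 to 0.98, and 69 of 9963 genes compared had an r above 0.9. All 6 were lowest in WT replicate 2, where the profile was lowest too, which follows from how they were picked. How many genes would pass an r of 0.9 by chance over 6 arrays was not tested.

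Other primary response genes were as even between the genotypes. Of 30 genes of this kind 18 were higher and 12 lower in KO (median difference 0.02), and 0 passed an adjusted p of 0.05 from limma. At an unadjusted p of 0.05, 0 were higher and 1 was lower, where 0.361% and 0.477% of all genes were. The lower one was Maff, a small Maf protein that pairs with bZIP factors, with 5.70, 5.56 and 5.49 in KO and 5.76, 5.99 and 5.86 in WT. Its difference was -0.29 (SE 0.10, unadjusted p = 0.0284, adjusted p = 0.99999 from limma). The KO arrays lay below the WT arrays, all at dim signals. Ier3, which guards cells against apoptosis, had the next smallest p, with 6.54, 6.81 and 6.63 in KO and 6.65, 6.34 and 6.17 in WT (difference 0.27, unadjusted p = 0.114 from limma).

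Further genes of this list were picked for their family after their values were seen. The Fos relatives Fosl1 and Fosl2 were at -0.01 and -0.0024, and the Egr relatives Egr3 and Egr4 at -0.10 and -0.11. Ier5, a relative of Ier2, was at 0.01. The Nr4a nuclear receptors, a family of their own that growth factors and cAMP both induce, were at 0.15 (Nr4a1), 0.15 (Nr4a2) and 0.0054 (Nr4a3). None of these 8 had an unadjusted p under 0.05 from limma.

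A further list joined inhibitors that ERK induces against its own pathway, such as the Dusp, Spry and Spred genes, with other targets of ERK, Etv1, Etv4, Etv5 and Phlda1. Of these 15 genes 6 were higher and 9 lower in KO, where 50.3% of all genes were higher, and 0 had an unadjusted p under 0.05 from limma. Their median difference was -0.10, and it moved both ways between alternatives. It was -0.029 without WT replicate 1 and -0.023 with array weights, but -0.14 without KO replicate 3 and WT replicate 2. The smallest p-values were those of the Ets factors, which are targets and not inhibitors of ERK, Etv4 (-0.19, unadjusted p = 0.111 from limma) and Etv1 (-0.17, unadjusted p = 0.146 from limma). Etv4 had 5.28, 5.38 and 5.37 in KO and 5.38, 5.64 and 5.59 in WT, so that KO replicate 2 and WT replicate 1 met. Among the phosphatases related to Dusp1, which were chosen after their values were seen, Dusp6, specific for ERK in the cytoplasm, was at 0.03 and Dusp4 and Dusp5, both nuclear, at -0.31 and 0.22. Dusp5 rested on 1 array, KO replicate 2 at 8.37, while the other 5 lay between 6.75 and 7.38.

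The cascade itself was measured through 11 of 18 listed genes, and the others were not analysed here. Of the 11, 3 were higher and 8 lower in KO (median difference -0.07), and 0 had an unadjusted p under 0.05 from limma. The lowest p-values were those of Map2k2, the kinase MEK2 (-0.17, unadjusted p = 0.164 from limma), and Rps6ka3, an ERK-activated kinase (-0.25, unadjusted p = 0.165 from limma). The median of these 11 genes was 0.0052 without WT replicate 1.

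Of the transcription factors and kinases that act on immediate early promoters, all 13 listed were measured, and 10 were higher and 3 lower in KO (median difference 0.04). The number higher was 7 with array weights or without KO replicate 3, but 11 with quantile normalization. The median was 0.0046 with array weights and 0.015 without WT replicate 2, but 0.071 without KO replicate 2. None had an unadjusted p under 0.05 from limma. Srf was at 0.04, Elk1 at 0.08, Elk4 at 0.04 and Creb1 at 0.05, 4 genes named for their role on these promoters. Crem, a cAMP-responsive relative of Creb1, had the smallest p, with 6.85, 7.40 and 6.86 in KO and 6.87, 6.57 and 6.72 in WT (difference 0.32, unadjusted p = 0.117 from limma). KO replicate 2 was the highest array for Crem as it was for Dusp1. Mapk9, the kinase JNK2, followed at -0.10 (unadjusted p = 0.279 from limma). Of 14 measured bZIP partners of AP-1 7 were higher and 7 lower (median 0.03), with Maff the 1 gene past an unadjusted p of 0.05 and Mafk next at 0.11 (unadjusted p = 0.244 from limma).

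**Figure D4:**
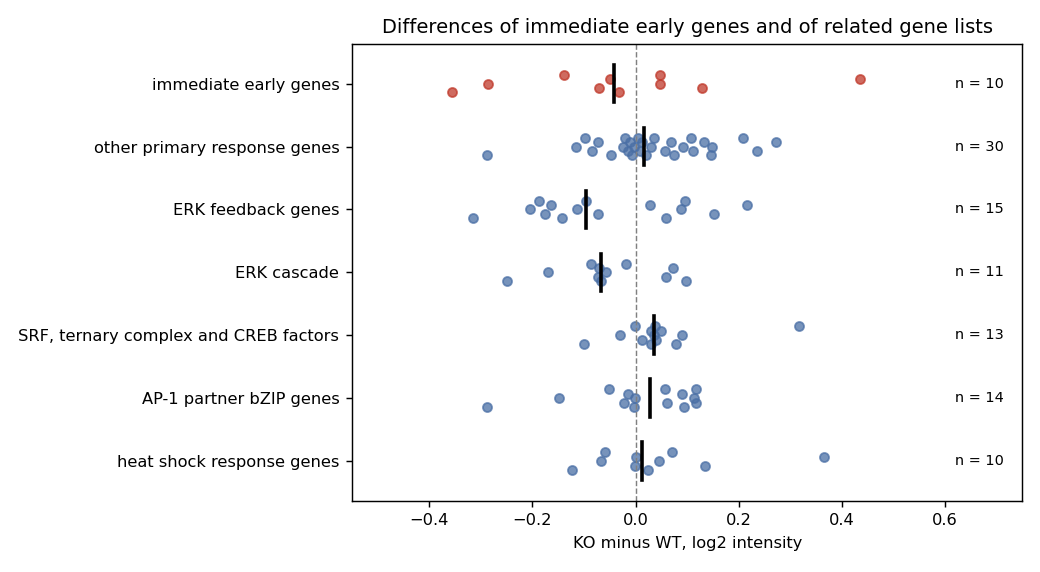
KO minus WT difference in log2 intensity of each measured gene in the immediate early set (red) and in 6 related lists (blue), with a black bar at the median of each list and the number of genes at the right. Every median lies between -0.10 and 0.04, and Dusp1 is the rightmost point at 0.44.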

How the data were processed

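Adipose tissue RNA of 3 cavin-3 KO and 3 WT mice was amplified, labelled with biotin and hybridised to 6 arrays. What the authors deposited is a linear intensity for each probe set. RMA, which corrects background and normalizes by quantiles, is named in the submitters' processing notes, with no version given in the sources used here, and the methods name GenePattern modules. Scanner files were not used here, so detection could not be judged, and the number of arrays limits the precision (median SE of a difference 0.13).

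After log2 transformation, all 34760 probe sets entered 1 linear model of genotype without covariates (lmFit, then eBayes, limma 3.58.1 under R 4.3.3), and p-values were adjusted by Benjamini and Hochberg. Among the probe sets 21640 had 1 symbol, 1321 several and 11799 none, and 21553 matched the RefSeq table. The probe set with the highest mean was kept for each of 19937 genes. Genes named are the 10 members, cavin-3, Xist, Uty, the 2 of smallest p in each list and the 6 most alike in profile. Where stated, others were chosen after their values were seen. The members and lists were chosen with earlier results of these data known. Lists were described and not tested. The 19 alternatives comprised other tests, normalizations, filters, variance models, a replicate block and leaving out arrays. A term for KO replicate 3 and WT replicate 2 was also among the alternatives. Of the 19, 1 (without WT replicate 1 and KO replicate 2) was chosen after seeing the data. The fit was tested on simulated data. Mice were separate animals per the study.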

Additional observations from a re-analysis of the deposited data

How the results depend on the processing

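No immediate early gene passed an adjusted p of 0.05 from limma or the methods' t-test in any of the 19 alternatives (lowest adjusted p 0.9996). The median difference of the set stayed between -0.07 and 0.00077 and the number higher in KO between 3 and 5. The number past an unadjusted p of 0.05, 1 with all arrays, was 2 with array weights (Fosb and Dusp1), 0 with the methods' t-test on log2 or on linear values, and 0 to 1 without each array in turn (0 without KO replicate 2 or WT replicate 1, and Fosb in place of Dusp1 without WT replicate 2). Without KO replicate 2 and WT replicate 1 together the 1 gene was Egr1 (unadjusted p = 0.0395 from limma). Dusp1, Fosb, Egr2 and Jund kept their direction in all 19. The other 6 turned: without each array in turn, or without either pair of arrays that stood apart, Fos ran from -0.044 to 0.11, Jun from -0.032 to 0.30, Junb from -0.073 to 0.017, Egr1 from -0.093 to 0.36, Ier2 from -0.18 to 0.072 and Atf3 from -0.17 to 0.054. Without KO replicate 3 and WT replicate 2 Junb was at 0.0038 and Egr1 at -0.093, and without KO replicate 2 and WT replicate 1 Ier2 was at 0.072. The cause was not tested. With only probe sets above the median signal of all probe sets, which is lower than that of the genes, 7 of the 10 genes were left. The number of all genes past an unadjusted p of 0.05 was 89 in that setting, which fits fewer genes. In the other alternatives it was 101 (without KO replicate 1) to 350 (the methods' t-test on linear values), against 167 in the main limma fit. In each alternative 0 or 1 gene passed an adjusted p of 0.05.

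Replicate numbers did not mark the arrays most alike across genotypes. Deviations from the genotype means correlated over probe sets at -0.15, -0.37 and -0.09 between KO and WT arrays of the same number. Across numbers they correlated at 0.52 for KO replicate 2 with WT replicate 1 and 0.48 for KO replicate 3 with WT replicate 2. KO replicate 1 with WT replicate 3 was at 0.37, and the remaining pairs were at -0.36 to -0.14. On log2 values the pairs with positive r correlated at 0.9894 to 0.9905, against 0.9731 to 0.9846 between arrays of 1 genotype. No block was fitted for all of these pairs, but a term for KO replicate 3 and WT replicate 2 was among the alternatives. With that term the unadjusted p of Dusp1 was 0.0305 from limma. The cause of the likeness was not tested. With a block for replicate number, 1 of the 10 genes, Dusp1, had an unadjusted p under 0.05 (0.0398 from limma). The adjusted p of each of the 10 was then 0.99999 from limma.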

Other observations

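Dusp1 and Per1 are also induced by glucocorticoids, so 12 genes known for that response were read out. This list was chosen after the values of Dusp1 had been seen. Of the 12 genes 9 were higher and 3 lower in KO (median difference 0.11). Leaving out WT replicate 2 turned the median to -0.041, and leaving out KO replicate 3 gave 0.32; these are the 2 arrays on which the mean of the list was lowest. Among these genes 0 had an unadjusted p under 0.05 or an adjusted p under 0.05 from limma. Klf9, a transcription factor, had 10.12, 9.87 and 9.97 in KO and 9.70, 9.63 and 9.98 in WT (difference 0.21, unadjusted p = 0.140 from limma). Per1, a clock gene and primary response gene, had 9.39, 9.41 and 9.02 in KO and 9.17, 9.06 and 8.89 in WT (difference 0.24, unadjusted p = 0.143 from limma), and Sgk1, a kinase, was at 0.21 (unadjusted p = 0.132 from limma). Both genes also belong to the list of other primary response genes above, so their values are not separate from that list. Fkbp5, a co-chaperone of the glucocorticoid receptor, had 8.74, 8.96 and 6.90 in KO and 8.68, 7.29 and 8.83 in WT, and was lowest in KO replicate 3 and WT replicate 2, the arrays with high Xist signal.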
